A study of Mus musculus with 10 samples.

Results

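The lysyl oxidase family comprised 5 genes, Lox, Loxl1, Loxl2, Loxl3 and Loxl4, and all 5 were found by gene symbol among the 23230 features of a mouse RNAseq expression matrix. The matrix held FPKM, fragment numbers scaled to transcript length and to the size of the library, for 10 libraries of a mouse glioma model. AstroEGFR* were astrocytes from the cerebral cortex of C57BL/6 pups at day P5 that lacked Ink4a/Arf (p16/p19 KO) and carried a retrovirus for human EGFRvIII, a constitutively active form of the EGF receptor. There were 3 AstroEGFR* libraries, 1 from each of the astrocyte batches 1, 2 and 3. The 3 AstroEGFR* Zfp423 libraries came from the same batches after infection with a further vector for Zfp423, a zinc-finger transcription factor. The 4 PT libraries were glioma propagating cells, cultured from tumours that AstroEGFR* had formed in the brains of CD1 Nude mice. Batch 1 gave rise to PT1 and PT4, batch 2 to PT2 and batch 3 to PT3, and by their labels and the study's methods all 10 libraries shared the Ink4a/Arf deletion and EGFRvIII. AstroEGFR* cultures received fetal bovine serum, while PT grew on laminin with EGF and FGF2 and no serum, so the medium and the passage through a tumour cannot be told apart. Each library was 1 culture at a passage below 10, and in such bulk RNA fewer cells of a type and less RNA per cell cannot be told apart.

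Lysyl oxidases are copper-dependent amine oxidases that are secreted into the extracellular matrix. They oxidise lysine and hydroxylysine side chains of collagens and elastin to aldehydes, which then condense into the covalent crosslinks that give fibres their tensile strength. Lox and Loxl1 are made as pro-enzymes that BMP1-type proteinases cleave, and Loxl1 is best known for elastic fibre assembly. Loxl2, Loxl3 and Loxl4 instead carry scavenger receptor cysteine-rich domains before the catalytic domain, and Loxl2 is known for crosslinking of basement membrane collagen IV. Fibroblasts and other mesenchymal cells are the usual strong sources of these enzymes, and the brain parenchyma holds little fibrillar collagen.

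Several properties of the libraries bear on these values. The relative depth, estimated from the commonest ratio of FPKM between libraries over sparse features, had PT4 as its unit and was lowest in AstroEGFR*3 (0.0718) and PT3 (0.0934), with a range of 0.514 to 1.01 for the rest. Small non-coding RNA and histone features took between 0.801% and 54.8% of the FPKM. Gapdh, which every cell uses, was listed at 0.0106 to 50.1 FPKM, so a value near 0 is given as listed and not as absence of a transcript. Zfp423 was listed at 4.30, 3.25 and 3.48 FPKM in AstroEGFR*1, 2 and 3 and at 15.7, 9.73 and 105 FPKM in the corresponding Zfp423 libraries, and was thus higher in each library labelled with the vector. Cdkn2a, the Ink4a/Arf gene, was listed at 3.96 to 29.1 FPKM in AstroEGFR*, 7.34 to 130 FPKM in PT and 4.10 to 6.29 FPKM in AstroEGFR* Zfp423, and since a value per gene does not show which exons it covers, it does not check the deletion. Astrocyte markers summed to 509 to 1048 FPKM in AstroEGFR*, 352 to 921 FPKM in PT and 199, 59.4 and 904 FPKM in AstroEGFR*1, 2 and 3 Zfp423. In AstroEGFR*2 Zfp423 the astrocyte enzyme gene Aldh1l1 was at 1.69 FPKM, against 127 to 178 FPKM in AstroEGFR*. The 7 microglial markers summed to 853 and 550 FPKM in AstroEGFR*1 and 2 Zfp423, 6.36 to 39.1 FPKM in AstroEGFR*, 0.211 to 2.53 FPKM in PT and 0.156 FPKM in AstroEGFR*3 Zfp423. In AstroEGFR*1, 2 and 3 most of the sum was Tmem119, at 7.61, 4.89 and 38.0 FPKM, and 5 of the 7 markers were under 1 FPKM in all of these libraries.

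The 5 enzymes were expressed at very different levels, and both the total and the make-up of the family varied between libraries. FPKM are scaled to transcript length, so levels are set side by side here, with the limits that a gene such as Gapdh was listed near 0 in some libraries and that Loxl3 shares exonic sequence with Htra2 on the opposite strand (17.8 to 36.5 FPKM). Exons of Lox and Loxl2 also overlap antisense genes on the opposite strand, which the matrix does not list. The FPKM of the 5 genes summed to 200, 76.5 and 932 in AstroEGFR*1, 2 and 3. The sum was 56.7, 21.9, 45.0 and 38.6 in PT1 to PT4, and all 4 PT libraries lay below every AstroEGFR* library. In AstroEGFR*1, 2 and 3 Zfp423 the sum was 342, 1033 and 50.2, so the highest sum of the series and one within the PT range carried the same vector. Lox had the largest share in AstroEGFR*3 (60.5%) and AstroEGFR*2 Zfp423 (55.7%), and it also led in AstroEGFR*1 Zfp423. Loxl1 led in AstroEGFR*1, PT1, PT3 and PT4, with up to 60.8% in PT4. Loxl3 led in AstroEGFR*2, in PT2 and in AstroEGFR*3 Zfp423, where its share was 62.7%. Lox had the lowest level of the 5 genes in all 4 PT and in AstroEGFR*3 Zfp423, and Loxl4 had the lowest in the other 5 libraries.

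**Figure D1:**
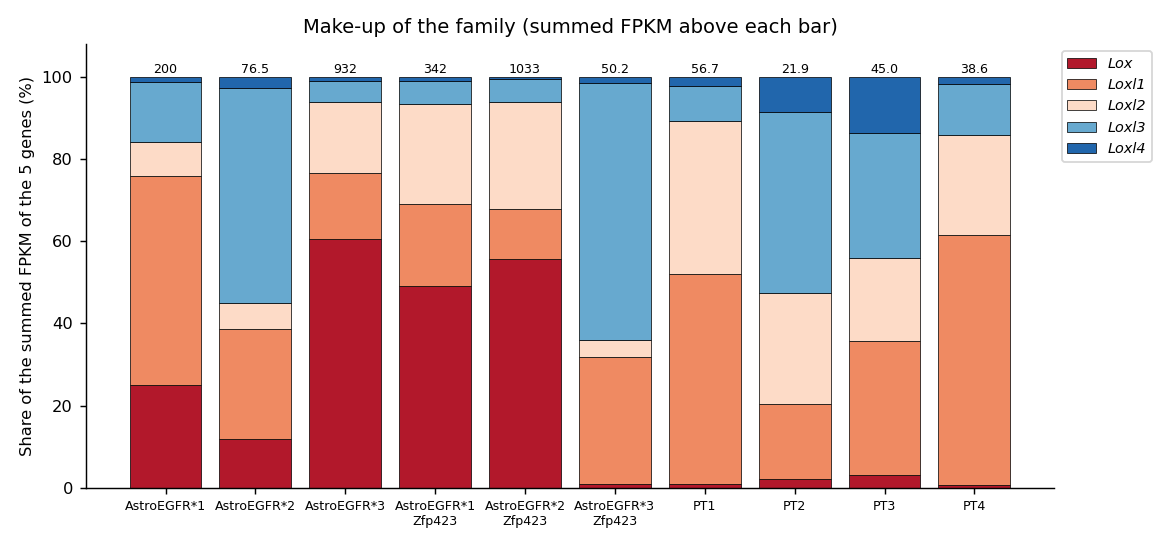
Share of each lysyl oxidase gene in the summed FPKM of the 5 genes (vertical axis, %), 1 bar for each of the 10 libraries, with the summed FPKM printed above the bar. Lox takes up to 60.5% in libraries with a high sum and at most 3.03% in PT.

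Lox, the founding member, had the widest range. It was listed at 50.0, 9.13 and 564 FPKM in AstroEGFR*1, 2 and 3. The PT1 to PT4 values were 0.518, 0.446, 1.36 and 0.279 FPKM, and those of Zfp423-infected cells were 168, 575 and 0.467 FPKM in AstroEGFR*1, 2 and 3 Zfp423. The AstroEGFR* and PT ranges were far apart, while AstroEGFR*3 Zfp423 lay among the PT. Within AstroEGFR* the highest value was 61.7 times the lowest, and within PT it was 4.89 times.

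Loxl1, the other short member, was at 102, 20.5 and 149 FPKM in AstroEGFR*1, 2 and 3, whereas PT1 to PT4 had 29.0, 4.03, 14.7 and 23.5 FPKM. AstroEGFR*2 lay below PT1 and PT4, so these groups overlapped. In AstroEGFR*1, 2 and 3 Zfp423 it was at 68.4, 125 and 15.5 FPKM, the last of these again among the PT.

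Of the members with scavenger receptor domains, Loxl2 was at 16.7, 4.72 and 162 FPKM in AstroEGFR*1, 2 and 3. PT1 to PT4 had 21.1, 5.92, 9.08 and 9.38 FPKM of it, and AstroEGFR*1, 2 and 3 Zfp423 had 83.4, 269 and 2.10 FPKM. PT lay between AstroEGFR*2 and AstroEGFR*3, and the lowest value of the series was in AstroEGFR*3 Zfp423. Loxl3 varied least among cultures of the same kind, with 29.1, 40.1 and 48.7 FPKM in AstroEGFR*1, 2 and 3, a 1.67-fold range. PT1 to PT4 had 4.81, 9.65, 13.7 and 4.74 FPKM of it and AstroEGFR*1, 2 and 3 Zfp423 had 19.3, 57.5 and 31.4 FPKM, so every PT lay below all 6 other libraries. Loxl4 was weakly expressed throughout, at 2.43, 2.09 and 8.46 FPKM in AstroEGFR*1, 2 and 3, 1.28, 1.89, 6.18 and 0.712 FPKM in PT1 to PT4 and 3.27, 6.41 and 0.713 FPKM in AstroEGFR*1, 2 and 3 Zfp423. Its highest values in AstroEGFR* and in PT were both in the low-depth libraries of batch 3.

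**Figure D2:**
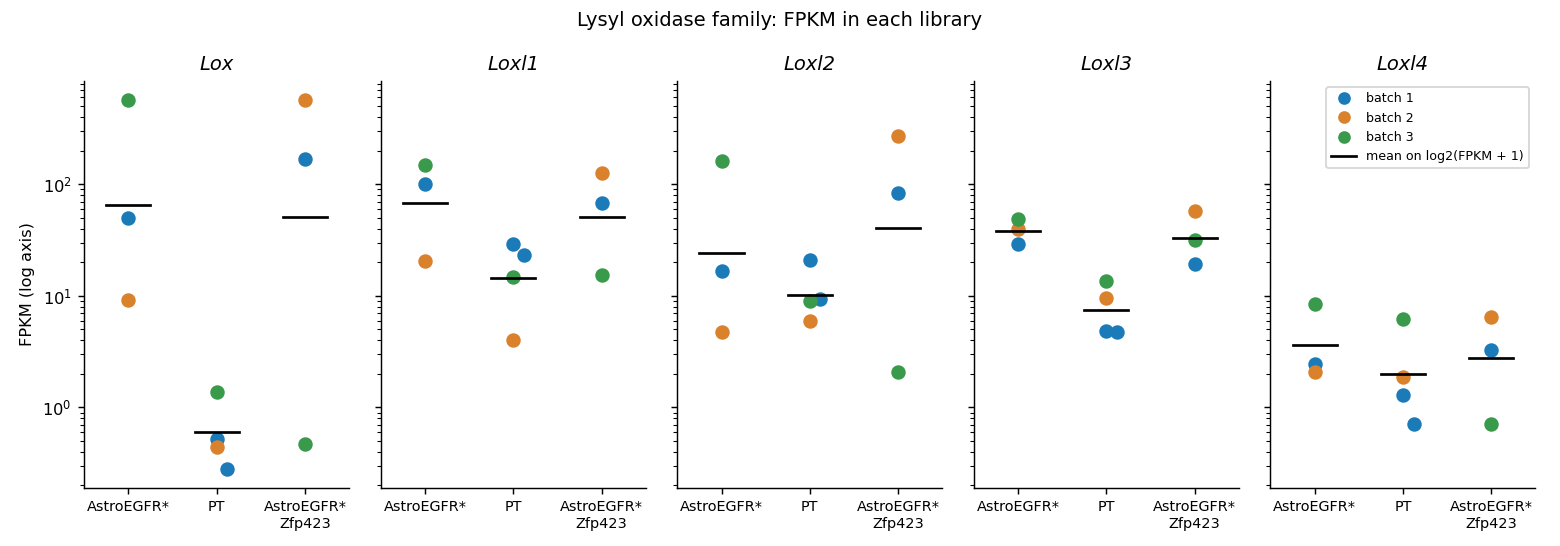
FPKM (log axis) of each lysyl oxidase gene in the 10 libraries by group, with points coloured by astrocyte batch and bars at the group mean on the log2(FPKM + 1) scale. Lox separates AstroEGFR* (9.13 to 564 FPKM) from PT (0.279 to 1.36 FPKM), and the batch 3 Zfp423 library lies among the PT for Lox and Loxl1.

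The comparison of PT with AstroEGFR* asks which genes differ between the tumour-derived cells and the tumorigenic astrocytes. Loxl3 fell in PT, by 2.22 on the log2(FPKM + 1) scale (SE 0.40, limma with Benjamini-Hochberg adjustment, adjusted p = 0.0482), from a mean FPKM 4.79 times that of PT. It was the only member past the threshold of 0.05, beside 113 of 12261 tested features called lower (0.922%) and 39 called higher. Lox differed most in size, with a log2 difference of -5.37 (SE 1.17) and a mean FPKM 319 times as high in AstroEGFR* as in PT, and did not pass (limma, adjusted p = 0.0864). The mean rested on AstroEGFR*3, a low-depth library, and without it the ratio was 45.3 and the log2 difference -3.82 (limma, adjusted p = 0.0897). For Lox and Loxl3 the groups did not overlap, which was also the case, in the same direction, for 7.81% of all tested features. The exact two-sided permutation test gave p = 0.0286 for each of them, the smallest that 3 against 4 libraries allow. This test and the fit without a batch block take the libraries as independent. PT1 and PT4 both came from batch 1, however, and each PT shared its batch with an AstroEGFR* library. Loxl1 had a log2 difference of -2.15 (SE 0.82; limma, adjusted p = 0.309), Loxl2 of -1.18 (SE 1.03; limma, adjusted p = 0.693) and Loxl4 of -0.63 (SE 0.60; limma, adjusted p = 0.725). The value of Loxl4 was -0.12 without AstroEGFR*3 and -1.05 without PT3. At an unadjusted p under 0.05, 3 of the 5 members were lower in PT, against 7.69% of all features.

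Set against the AstroEGFR* of its own batch, every PT was lower in Lox, Loxl1, Loxl3 and Loxl4. For Lox the log2 differences were -5.07 and -5.32 in PT1 and PT4, -2.81 in PT2 and -7.90 in PT3. The 4 differences of Loxl3 were close to each other, at -2.37, -1.95, -1.76 and -2.39 in PT1 to PT4. Those of Loxl1 were -1.77, -2.09, -3.25 and -2.07. Loxl2 differed in sign between batches, with values of 0.32, 0.28, -4.01 and -0.77 for PT1 to PT4. With the astrocyte batch as a replicate block, Lox (log2 difference -5.29, limma, adjusted p = 0.0397), Loxl1 (-2.37, limma, adjusted p = 0.0258) and Loxl3 (-2.07, limma, adjusted p = 0.0124) passed. In that fit 475 of 12261 features passed, 329 lower and 146 higher in PT. With PT1 and PT4 averaged and no block, 0 members passed (limma, adjusted p = 0.189 for Lox, 0.348 for Loxl1 and 0.115 for Loxl3).

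**Figure D3:**
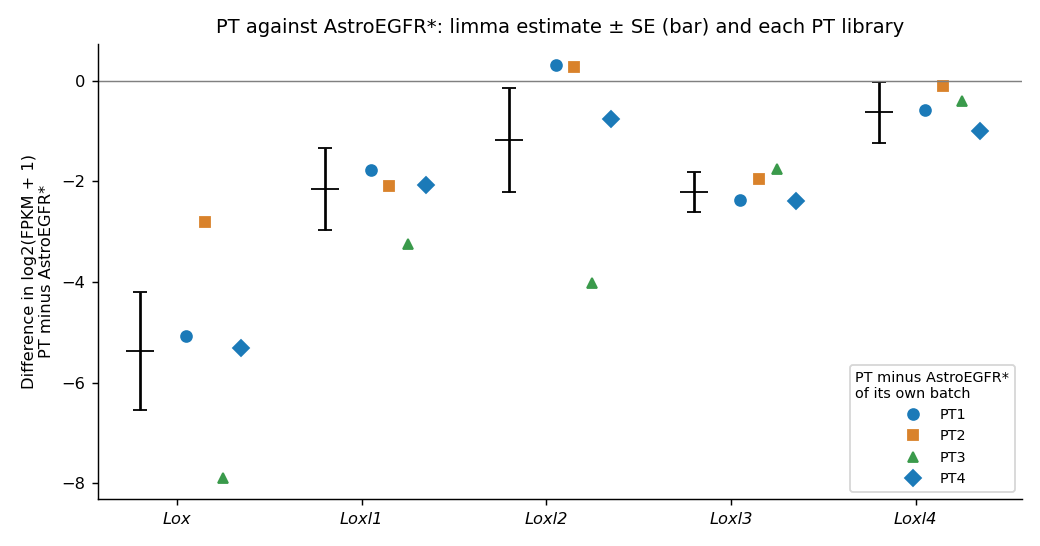
Difference in log2(FPKM + 1) between PT and AstroEGFR* for each lysyl oxidase gene, as the limma estimate with its SE (black bar) and as each PT library minus the AstroEGFR* of its own batch (coloured symbols). Loxl3 lies between -1.76 and -2.39 in all 4 PT, whereas Loxl2 ranges from 0.32 to -4.01.

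The call for Loxl3 rested on few libraries. It was lost when any AstroEGFR* library or PT1, PT2 or PT4 was left out, with log2 differences of -2.03 to -2.41 and limma adjusted p between 0.0836 and 0.16, and it held without PT3 (limma, adjusted p = 0.0347). It was also lost without both low-depth libraries, AstroEGFR*3 and PT3 (log2 difference -2.31, limma, adjusted p = 0.123), and with a pseudocount of 0.1 (-2.36, limma, adjusted p = 0.0513). With PT1 and PT4 of batch 1 averaged it was lost as well (-2.03, limma, adjusted p = 0.115), as in some other settings. The size of the difference stayed between -2.03 and -2.48 under all settings run. Leaving out AstroEGFR*2 gave a call for Lox (log2 difference -6.72, limma, adjusted p = 0.0314), and without AstroEGFR*3 the difference of Loxl2 was 0.16. Htra2, the mitochondrial protease gene that overlaps Loxl3, had a log2 difference of -0.17 between PT and AstroEGFR* (SE 0.33, limma, adjusted p = 0.882), and the sources name both an unstranded and a stranded kit.

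Several genes of the same pathway, from lists chosen with earlier results of these data known, were lower in PT as well. Of the genes for pro-enzyme processing and matrix partners, 7 were tested and all 7 had a negative difference, with a median of -2.29 on the log2 scale against 0.027 for all features. In this list 2 genes passed. Fmod, a collagen-binding proteoglycan, fell by 6.59 on the log2 scale (SE 1.01, limma, adjusted p = 0.0289), with 410, 13.1 and 183 FPKM in AstroEGFR*1, 2 and 3 and at most 0.219 FPKM in PT. Thbs1, a matricellular glycoprotein, fell by 6.28 (SE 0.94, limma, adjusted p = 0.0274), with 116 to 352 FPKM in AstroEGFR* and 0.382 to 18.5 FPKM in PT. Postn, a matrix scaffold for Bmp1, had a difference of -4.47 (limma, adjusted p = 0.188), fibronectin (Fn1) of -2.29 (limma, adjusted p = 0.164), and Bmp1 itself, which encodes the cleaving proteinase, of -0.08 (limma, adjusted p = 0.954).

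Among collagen substrates, 11 of 12 tested genes were lower in PT and 0 passed with limma, with a median log2 difference of -2.20; 5 were lower at an unadjusted p under 0.05. The largest were the fibrillar chains Col1a2 (-7.00, SE 1.74, limma, adjusted p = 0.123) and Col1a1 (-4.97, SE 1.42, limma, adjusted p = 0.166). Of the elastic fibre genes 10 of 12 were lower, and Fbln5, which links elastin to cells and to Loxl1, fell by 3.27 (SE 0.37, limma, adjusted p = 0.0109). Elastin itself (Eln) had a difference of -0.39 (limma, adjusted p = 0.931). Of the 12 collagen hydroxylation and folding genes, which act before secretion, 4 were lower and 8 higher, with a median of 0.21, 0 past the threshold with limma and 1 lower at an unadjusted p under 0.05. That gene was P4ha3, a prolyl hydroxylase subunit, with a difference of -3.64 (SE 0.82, limma, adjusted p = 0.0964). Of 5 copper supply genes 3 were lower and 2 higher, 0 passed, and 1 in each direction had an unadjusted p under 0.05, with Slc31a1, the copper importer, at 0.80 (limma, adjusted p = 0.314).

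Values that moved with the family are given beside it. Serum response genes were all lower in PT, 9 of 9 tested with a median of -4.93, and 6 passed, among them the smooth muscle genes Tagln (-7.79, limma, adjusted p = 0.00471) and Acta2 (-7.78, limma, adjusted p = 0.0109). The 10 markers of fibroblasts or meninges summed to 717, 663 and 5405 FPKM in AstroEGFR*1, 2 and 3 and to 87.6, 25.7, 416 and 67.7 FPKM in PT1 to PT4. Without Col1a1, Col1a2 and Col3a1 the sums were 185 to 722 FPKM in AstroEGFR* and at most 60.5 FPKM in PT. All 9 that were tested had negative differences, and 1, Ogn, a small leucine-rich proteoglycan gene, passed (-4.72, limma, adjusted p = 0.0109). Markers of pericytes and smooth muscle summed to at most 9.61 FPKM and those of endothelium to at most 3.40 FPKM in these groups. The former list does not hold Acta2 and Tagln, which were at 725 to 1730 and 345 to 1629 FPKM in AstroEGFR*. In PT these 2 genes were at most at 19.9 and 3.20 FPKM. The 8 oligodendrocyte lineage markers went the other way in batch 1, with sums of 1357 and 1689 FPKM in PT1 and PT4 against 223 FPKM in AstroEGFR*1, and PT2 and PT3 had 145 and 131 FPKM against 130 and 66.8 FPKM in their parents. Of the 6 that were tested 5 were higher in PT, with a median of 1.28, and 0 passed with limma, with 1 higher at an unadjusted p under 0.05. The part of culture medium and cell type in the difference of the lysyl oxidases was not tested.

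The second comparison asks what forced expression of Zfp423 does to the astrocytes. No member passed the threshold with batch as a block, and neither did any other feature, with 0 of 12366 called by limma (0%) and 7.38% at an unadjusted p under 0.05. Zfp423 itself was thus not called, although it was 3.64, 2.99 and 30.2 times as high in its libraries of batches 1, 2 and 3. The mean log2 differences were small beside their errors: -0.34 (SE 2.97) for Lox, -0.40 (SE 1.16) for Loxl1, 0.70 (SE 2.32) for Loxl2, -0.23 (SE 0.32) for Loxl3 and -0.30 (SE 0.83) for Loxl4, with limma adjusted p between 0.859 and 0.980. The exact permutation test over 3 pairs can give no p below 0.25.

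The small means hid large differences of opposite sign. In batch 2 Lox was 62.9 times as high with Zfp423 as in the parent culture, and Loxl2 57.0 times. In batch 3 the parent had 1207 times as much Lox as the Zfp423 library, and 77.1 times as much Loxl2. This Lox ratio sets 564 FPKM in AstroEGFR*3, the library of lowest depth, against 0.467 FPKM, a value near 0. In batch 1 the Zfp423 library had 3.35 times as much Lox, and 83.4 against 16.7 FPKM of Loxl2. Each batch held 1 library of either kind, so these differences have no replicate check.

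On the log2(FPKM + 1) scale, Lox differed by 1.73, 5.83 and -8.59 in batches 1, 2 and 3. Loxl2 followed with 2.25, 5.56 and -5.72. Loxl1 (-0.56, 2.55 and -3.19) and Loxl4 (0.32, 1.26 and -2.47) had the same signs in batches 2 and 3 with smaller sizes. Loxl3 stayed within 0.62 in every batch, with -0.57, 0.51 and -0.62.

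A count against all features puts these sizes in proportion. In batch 1, 2 of 5 members differed by more than 1 upwards, against 11.2% of the 12366 features. In batch 2, 4 of 5 did so, against 12.3%, and in batch 3, 4 of 5 differed by more than 1 downwards, against 16.5%. Differences above 5 in batch 2 were listed for 0.623% of features and below -5 in batch 3 for 0.663%, and Lox and Loxl2 were in both groups. The full pattern, above 1 in batches 1 and 2 and below -1 in batch 3, was found for 2.54% of features and for 2 members, Lox and Loxl2. The cuts at 5 and -5 and this pattern were set after the values of Lox and Loxl2 were seen, so that both genes meet them is a description only.

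Most collagen genes had these signs in the 3 batches too. Of 12 tested collagen substrates 10 were above 1 in batch 1, 8 were above 1 in batch 2 and 9 were below -1 in batch 3, with medians of 1.95, 1.87 and -3.19, and 1, Col4a6, was below -1 in batches 1 and 2 (-1.17 and -4.28). Col1a1 was at 103, 90.9 and 1816 FPKM in AstroEGFR*1, 2 and 3 and at 946, 1946 and 3.83 FPKM in the Zfp423 libraries. Col3a1 was at 39.4, 43.0 and 1117 FPKM and then at 1760, 1590 and 2.74 FPKM. Of 12 elastic fibre genes 3 were above 1 in batch 1, 5 in batch 2 and 10 below -1 in batch 3, and of 12 hydroxylation genes 0, 4 and 10. Among 8 processing and partner genes 3 were above 1 in batch 1, 4 in batch 2 and 6 below -1 in batch 3, while 2 were below -1 in batch 1 and 1 in batch 2, and the medians were -0.02, 1.02 and -2.45. Postn differed by 5.29, 5.99 and -8.61, but Fmod by -3.83, -0.29 and -6.83 and Pcolce2, a procollagen processing enhancer gene, by -1.24, -3.60 and 0.67. Of the 5 copper supply genes 1 was above 1 in batch 1, 0 in batch 2 and 1 in batch 3, and 0 were below -1 in any batch. Above 1 both times was Atox1, a copper chaperone gene, with 1.24, 0.38 and 1.01 in the 3 batches.

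**Figure D4:**
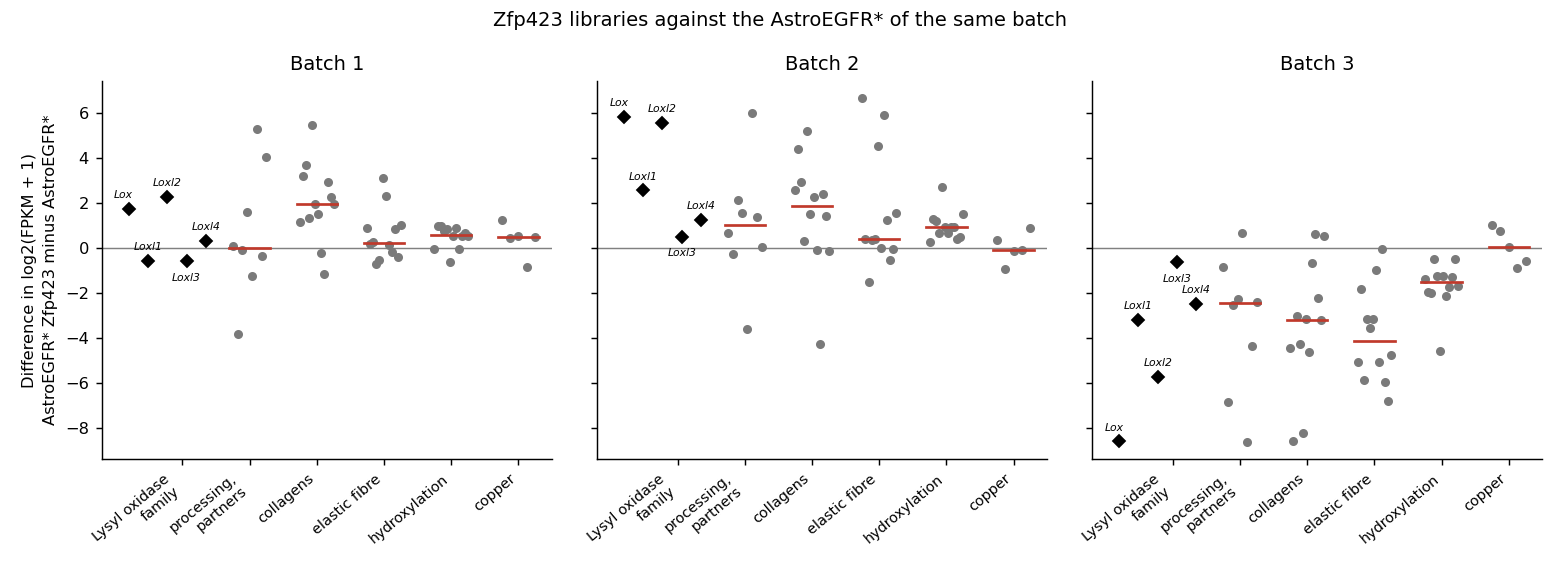
Difference in log2(FPKM + 1) between the Zfp423 library and the AstroEGFR* library of the same batch, for the 5 lysyl oxidases (black) and for genes of related lists (grey, median in red), 1 panel per batch. Lox and Loxl2 lie at 5.83 and 5.56 in batch 2 and at -8.59 and -5.72 in batch 3, and the collagen median passes from 1.87 to -3.19.

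Levels of other lists stood beside these differences as follows. Serum response genes were above 1 in 0 of 10 in batch 1 and 8 of 10 in batch 2 and below -1 in 7 of 10 in batch 3, with medians of 0.09, 1.47 and -3.08. Astrocyte markers were below -1 in 5 of 8 in batch 1, 8 of 8 in batch 2 and 2 of 8 in batch 3, and above 1 in 1, 0 and 2, with medians of -1.30, -3.61 and -0.52. Over the 3 batches 8 of 8 were lower with Zfp423, 3 at an unadjusted p under 0.05 and 0 past the threshold with limma. The fibroblast or meningeal markers summed to 4792, 6368 and 286 FPKM in AstroEGFR*1, 2 and 3 Zfp423, against 717, 663 and 5405 FPKM in the parents, and in the batch 3 Zfp423 library 3 of the 10 markers were listed at 0, including Dcn, a collagen-binding proteoglycan. Without the collagen genes Col1a1, Col1a2 and Col3a1 the other 7 of these markers summed to 529, 192 and 64.0 FPKM with Zfp423 against 456, 185 and 722 FPKM in the parents, so the higher sums of batches 1 and 2 were mostly collagen RNA. Of the 9 that were tested 5 were above 1 and 2 below -1 in batch 1, 5 above 1 and 3 below -1 in batch 2, and 8 below -1 in batch 3, and Islr (-2.67, -2.86 and -3.02) was below -1 in each. Microglial markers were high in batches 1 and 2 with Zfp423, as given above, and C1qa, a complement gene of myeloid cells, was listed at 433, 290 and 0 FPKM. Oligodendrocyte lineage markers summed to 38.3, 54.7 and 161 FPKM in AstroEGFR*1, 2 and 3 Zfp423, against 223, 130 and 66.8 FPKM in the parents. The 5 that were tested did not move as one: on the log2 scale Olig1 (-3.50, -6.37 and 1.05) and Olig2 (-3.05, -5.46 and 2.89) had signs opposite to those of Lox in all 3 batches, Mbp, a myelin gene, had the same signs (2.25, 1.72 and -0.15), and Cspg4 (-0.07, 4.59 and -2.94) and Pdgfra (2.16, -0.52 and -1.94) had the same signs in 2 of 3. The level of Zfp423 itself was highest where Lox was lowest, at 105 FPKM in AstroEGFR*3 Zfp423, and lowest of the 3 where Lox was highest, at 9.73 FPKM. The part of cell type and vector level in these differences was not tested.

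The third comparison sets PT against AstroEGFR* Zfp423. All 5 members had negative differences and none passed, while 2 of 12412 features were called by limma, both higher in PT (lower, 0%), and 8.74% were lower at an unadjusted p under 0.05, among them Lox and Loxl3. Loxl3 had a log2 difference of -1.99 (SE 0.48, limma, adjusted p = 0.187) with no overlap of the groups, as had 7.28% of all features in that direction. Lox had a difference of -5.02 (SE 1.81, limma, adjusted p = 0.272), Loxl2 of -1.88 (SE 1.37, limma, adjusted p = 0.537), Loxl1 of -1.76 (SE 0.83, limma, adjusted p = 0.352) and Loxl4 of -0.34 (SE 0.66, limma, adjusted p = 0.845). Without AstroEGFR*3 Zfp423, 629 features passed, and Lox (-7.60, limma, adjusted p = 0.00115) and Loxl2 (-3.75, limma, adjusted p = 0.0206) were among them. Without AstroEGFR*2 Zfp423 the differences were instead -3.29 for Lox (limma, adjusted p = 0.606) and -0.52 for Loxl2 (limma, adjusted p = 0.929), and 1 feature passed. Loxl1 was at -2.59 without AstroEGFR*3 Zfp423 and at -1.12 without AstroEGFR*2 Zfp423. In batch 3 PT3 was above the Zfp423 library for Lox, Loxl2 and Loxl4, by 0.69, 1.70 and 2.07 on the log2 scale. It was below that library for Loxl1 (-0.06) and Loxl3 (-1.15). In batch 2 PT2 differed from its own Zfp423 library by -8.64 for Lox. Collagen substrates were lower in 9 of 11 tested genes, with a median of -2.07 against -0.03 for all features, and 0 passed with limma while 3 were lower at an unadjusted p under 0.05. Processing and partner genes were lower in 8 of 8, with a median of -1.91, 0 past the threshold and 4 at an unadjusted p under 0.05. Beside these, serum response genes were lower in 10 of 10 (median -3.76), microglial markers in 7 of 7 (-3.52) and fibroblast or meningeal markers in 8 of 8 (-3.69), and astrocyte markers were higher in 7 of 8 (1.54). At an unadjusted p under 0.05 these were 8, 6 and 2 lower and 2 higher, and 0 of them passed with limma. Of the fibroblast or meningeal markers, Col1a1, Col1a2 and Col3a1 were also counted among the collagen substrates. The others had log2 differences from -4.31 (Ogn) to -0.33 (Islr). Oligodendrocyte lineage markers were higher in 5 of 7 (median 0.98), with 2 higher at an unadjusted p under 0.05 and 0 past the threshold. The part of these lists in the differences of the family was not tested. This comparison shares the PT libraries with the first.

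The levels of the 5 enzymes over the 10 libraries were alike to differing degrees. Pearson's r on the log2(FPKM + 1) scale was 0.87 between Lox and Loxl1, 0.88 between Lox and Loxl2 and 0.82 between Loxl1 and Loxl2. It was lowest, 0.39, between Loxl2 and Loxl3. Lox had an r of 0.94 with Col1a1, 0.86 with Col3a1 and 0.81 with Col1a2. It had an r of 0.84 with Dcn, 0.86 with Acta2, 0.70 with C1qa and 0.17 with Zfp423. The 10 libraries share batches, media and 3 groups, so these coefficients are a description.

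Among 12476 features that averaged 1 FPKM or more, the 3 most like Lox were Cthrc1 (r = 0.997), a secreted collagen triple helix repeat protein, Itga11 (r = 0.996), the alpha subunit of a collagen-binding integrin, and Nid1 (r = 0.993), a basement membrane linker. Cthrc1 was at 33.5, 10.6 and 285 FPKM in AstroEGFR*1, 2 and 3, at most 0.730 FPKM in PT, and at 76.3, 294 and 0 FPKM in AstroEGFR*1, 2 and 3 Zfp423. For Loxl1 these were Ccdc80 (r = 0.961), a matrix protein, Cd248 (r = 0.955), a stromal surface protein, and Arhgap23 (r = 0.948). For Loxl2 they were Nod1 (r = 0.963), an intracellular receptor for bacterial peptidoglycan, Kctd11 (r = 0.954) and Slc16a3 (r = 0.954), a lactate transporter.

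For Loxl3 the most alike was Dok1 (r = 0.979), an adaptor of tyrosine kinase signalling whose gene lies 702 bases from Loxl3 in the GRCm38 annotation. Dok1 was at 32.1, 33.1 and 41.0 FPKM in AstroEGFR*1, 2 and 3, 7.54, 13.0, 16.8 and 7.53 FPKM in PT1 to PT4 and 20.2, 45.1 and 44.9 FPKM in AstroEGFR*1, 2 and 3 Zfp423, with a log2 difference of -1.64 between PT and AstroEGFR* (SE 0.32, limma, adjusted p = 0.064). Pawr (r = 0.946), a pro-apoptotic regulator, and Tinagl1 (r = 0.943), a matricellular protein, came next. For Loxl4 they were Fkbp10 (r = 0.964), a collagen chaperone, Rcn3 (r = 0.954), a calcium-binding protein of the endoplasmic reticulum, and H2-T10 (r = 0.943), a nonclassical histocompatibility gene.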

How the data were processed

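RNAseq values of 10 libraries, each 1 culture, were used, and their depth in reads is unknown. The deposited matrix lists FPKM, as the authors computed them, for 23230 features, and per the labels' processing notes the tools were TopHat 1.3 and Cuffnorm on mm9. FPKM hold no counts, so values were compared on log2(FPKM + 1), which understates changes of weak genes. Features averaging 1 FPKM or more in the libraries compared were fitted in limma 3.58.1 (R 4.3.3) by empirical Bayes with a trend, with Benjamini-Hochberg adjustment at 0.05. AstroEGFR* with and without Zfp423 were compared with batch as a block. PT comparisons were not blocked. Deviations from group means correlated between PT and AstroEGFR* of the same batch (0.347, 0.422, 0.426 and 0.500), and the study gives the batch of each PT. The correlations were 0.239, -0.110 and -0.261 between AstroEGFR* and AstroEGFR* Zfp423 of batches 1, 2 and 3. Single members were also tested by exact two-sided permutation.

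The members and gene lists were chosen with earlier results of these data known. Named were the 5 members, for each list except serum response the genes past the threshold, some of those with the largest differences, and the 3 features most alike to each member. Of the 6 serum response genes past the threshold only Tagln and Acta2 were named. A few further genes (Bmp1, Eln, Slc31a1, Htra2, Dok1, C1qa, Tmem119, Olig1, Olig2, Mbp, Cspg4, Pdgfra, Islr, Cdkn2a, Col4a6, Col3a1 with Zfp423) were named after their values were seen. Alternatives were a pseudocount of 0.1, no filter, median-ratio scaling, removal of 805 small RNA and histone features, no trend, all libraries in 1 fit, the block, PT1 and PT4 averaged, and each library left out. Chosen after seeing the data was removal of AstroEGFR*3 and PT3. The labels name a TruSeq RNA kit and a lentiviral Zfp423 vector, and the paper a ribosomal depletion with stranded libraries and a retroviral one. Gene overlaps were read from the GENCODE annotation of GRCm38. No sequences or coordinates of the authors' build were used here.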

Additional observations from a re-analysis of the deposited data

Results flagged for a closer look

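The difference between AstroEGFR* Zfp423 and AstroEGFR* had opposite signs in batches 2 and 3 for all 5 lysyl oxidases, and with 1 library of each kind per batch the difference between batches was not tested. On the log2(FPKM + 1) scale the values were 5.83 and -8.59 for Lox, 5.56 and -5.72 for Loxl2, 2.55 and -3.19 for Loxl1, 1.26 and -2.47 for Loxl4 and 0.51 and -0.62 for Loxl3. Of all 12366 features tested, 635 were above 1 in batch 2 and below -1 in batch 3, and 4 of the 5 members, all but Loxl3, were among them.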

How the results depend on the processing

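Depth limits the values near 0 FPKM, above all in AstroEGFR*3 and PT3. In PT against AstroEGFR*, 152 features passed, 82 with all 10 libraries in 1 fit, 61 with PT1 and PT4 averaged, 475 with the replicate block, 7 to 123 with 1 library left out (lowest without AstroEGFR*1) and 8 without both AstroEGFR*3 and PT3. The members past the threshold were 1, 3 with the block, 0 to 1 with 1 library left out, and 0 with a pseudocount of 0.1, without the filter, without the trend, with all libraries in 1 fit, with PT1 and PT4 averaged and without both low-depth libraries. Loxl2 ranged from -2.26 to 0.16 with 1 library left out, reversed without AstroEGFR*3, and was reversed without both low-depth libraries (0.21). In AstroEGFR* Zfp423 against AstroEGFR*, 0 features passed, 2 with no replicate block and 0 to 51 with 1 batch left out (51 without batch 2), and no member passed under any of these. There, with 1 batch left out, Lox ranged from -3.43 to 3.78, Loxl1 from -1.88 to 1.00 and Loxl4 from -1.07 to 0.79, each reversed without batch 3, and Loxl2 from -1.73 to 3.91, reversed without batch 2 (-1.73) or batch 1 (-0.08). In PT against AstroEGFR* Zfp423, 2 features passed, 0 with a pseudocount of 0.1, without the filter or with PT1 and PT4 averaged, 28 with all libraries in 1 fit, 20 with the replicate block, and 0 to 629 with 1 library left out (213 without PT2, 629 without AstroEGFR*3 Zfp423). The members past the threshold were 0, and 0 to 2 with 1 library left out. Loxl4 ranged from -0.91 to 0.15 with 1 library left out, reversed without AstroEGFR*2 Zfp423. The mean log2 level of Lox in PT moved to -0.60 with a pseudocount of 0.1. Median-ratio scaling and removal of small RNA and histone features left every member's direction and side of the threshold as they were. The block changed the call of no member other than Lox and Loxl1 in PT against AstroEGFR*. The causes were not tested.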
